A study of Homo sapiens with 18 samples.

Results

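The first response of Caco-2 cells to medium without riboflavin was measured at 24 h, the earliest of 3 times of collection. Caco-2 is an established human line from a colon carcinoma and a common model of gut epithelium. The 6 arrays of this time, of 18 in all, were chosen by their titles: 3 from cells kept for 24 h in riboflavin-free DMEM and 3 from control cells kept for 24 h in DMEM. Both media contained 10% foetal calf serum, penicillin and streptomycin, and the labels do not say whether the serum of these cultures was dialysed. The series also holds 3 depleted and 3 control arrays at 48 h and 3 and 3 at 72 h, and asks how a lack of riboflavin impairs the proliferation of intestinal cells. The array numbers run through the 6 groups once for each replicate number, so that 3 sets of 6 arrays hold 1 array of each group. In set 2 the titles of both 24 h arrays and of the 48 h control array carry a suffix to the array number, and its meaning is not given there. Values below are given in the order set 1, set 2, set 3. The labels do not say whether the sets came from separate cultures, so p-values reflect just the spread among these samples, which may be technical.

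Riboflavin (vitamin B2) enters cells through the SLC52A transporters and is converted by riboflavin kinase and FAD synthase to FMN and FAD, the cofactors of flavoenzymes. These enzymes include complex I and complex II of the respiratory chain, the acyl-CoA dehydrogenases of fatty acid oxidation, glutathione and thioredoxin reductases and the methylenetetrahydrofolate reductase of the folate cycle. Cells meet a shortage of amino acids and several other stresses through the integrated stress response, in which phosphorylation of the initiation factor eIF2 slows translation overall and raises translation of the transcription factor ATF4. ATF4 binds amino acid response elements and raises genes of amino acid synthesis, amino acid uptake and transfer RNA charging.

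Each array carried 54675 probe sets. Set 2 stood apart, with median signals of 25.7 to 31.3 per array, against 18.4 to 22.0 for set 1 and 19.1 to 23.3 for set 3, and with maxima of at least 27380, against at most 8575. The sets were therefore kept as a block in the fits reported here, except where a fit without it is named. Markers of colon epithelium summed to 22471 to 30600 in depleted cells and to 22489 to 32144 in control cells, and 0 of the 12 measured were called. Fibroblast, leukocyte, endothelial, goblet and enteroendocrine marker lists held 8, 5, 1, 3 and 1 measured genes. Of these 0 were called, which says little for such short lists. In depleted cells their sums were 1121 to 1590, 443 to 484, 82.6 to 88.4, 133 to 265 and 109 to 190. In control cells they were 1298 to 1872, 450 to 505, 90.7 to 141, 222 to 326 and 86.1 to 183. The sums cover every listed gene on the array, also those near background, and do not measure how many such cells were present. In these bulk samples, fewer cells of a type and less RNA per cell cannot be told apart.

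At 24 h, 244 genes were higher and 121 were lower in depleted cells than in control cells, among 12319 genes measured. The largest rises were those of the aldo-keto reductases AKR1C2 and AKR1C1 and of DDIT4, an inhibitor of mTORC1. The largest falls were those of the matrix protease MMP1, the chemokine CCL20 and ALB, serum albumin. A gene was called at an adjusted p under 0.05 (limma on log2(signal + 16) with the set as block, Benjamini-Hochberg over 27307 probe sets). The called genes made up 2.96% of those measured, with 1.98% higher and 0.982% lower, and the median difference of all genes was 0.01. Counts in the gene lists below are to be read beside these shares. A list with 1 called gene is not a result about its pathway. All differences below are depleted minus control on this log2 scale, which understates the change of genes with low signals. Among the called genes, 75 rose by more than 1 and 33 fell by more than 1.

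By probe set, 646 were called (2.37% of those tested), 424 higher (1.55%) and 222 lower (0.813%). In each of the 365 called genes the depleted array lay on the same side of the control array in all 3 sets, and in 315 of them the groups did not overlap at all. Of all genes measured, 8.05% lay with every depleted array above every control array and 6.12% with every depleted array below. The calls depended on the block and on how many arrays shared the estimate of the spread: without the block 59 probe sets were called, 48 higher and 11 lower. The 24 h arrays fitted alone with limma gave 0 calls (lowest adjusted p = 0.0755), with 4842 probe sets at an unadjusted p under 0.05, and all 365 genes were among those under 0.05. The 365 genes were chosen by the same differences on the same arrays. Neither this nor their shared side in the sets is therefore separate support. Fits with 1 array of 24 h left out called 214 to 334 probe sets, and all 365 genes kept their direction in the 6 fits. Of these genes 88 were called in all 6 such fits, 63 higher and 25 lower, and 87 in none. Without the block 37 of the 365 genes were called, among them AKR1C1, AKR1C2, DDIT4, SLC7A11, CTH, ASNS, STC2, MMP1, AFP and REG4. Below, a gene is said to keep its call where all 6 fits made it, and otherwise the number of fits is given. Without set 1 the count was 2, without set 2 it was 232 and without set 3 it was 0.

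**Figure D1:**
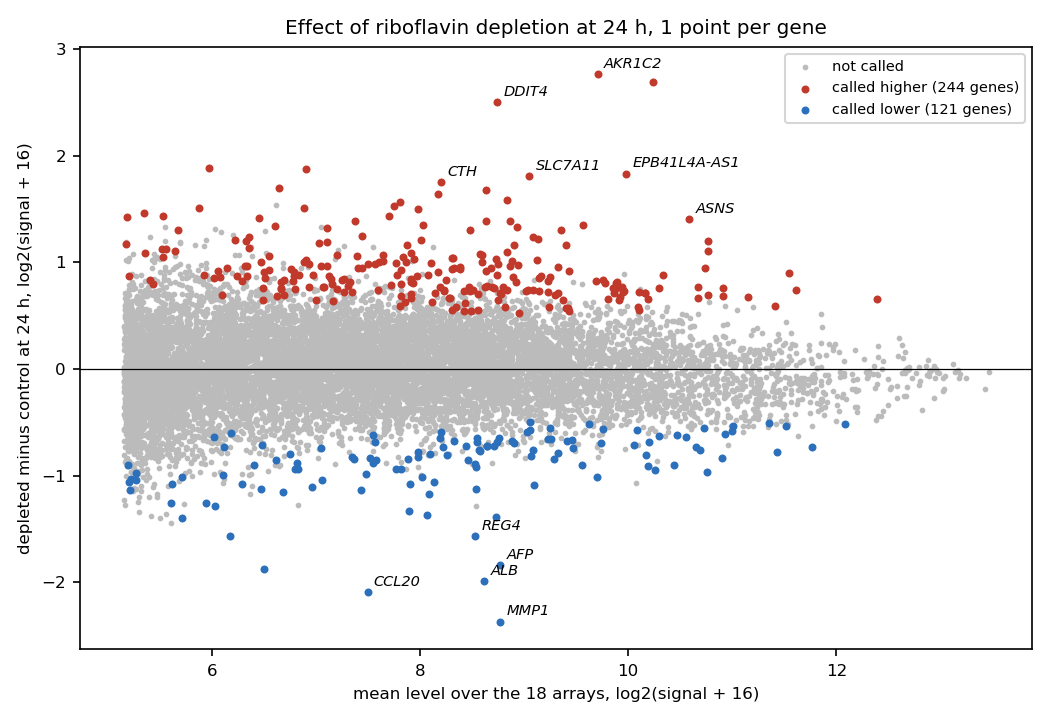
Depleted minus control at 24 h on the log2(signal + 16) scale (vertical axis) against the mean level over the 18 arrays on the same scale (horizontal axis), 1 point per gene. The 244 genes called higher are red, the 121 called lower blue and the genes not called grey; AKR1C2 lies highest at 2.76 and MMP1 lowest at -2.37.

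The steepest rises belonged to 2 aldo-keto reductases. AKR1C2, which reduces steroids and other carbonyl compounds, had signals of 2239, 2256 and 1544 in depleted cells, against 329, 343 and 191 in control cells, a difference of 2.76 (SE 0.20, adjusted p = 2.88e-05). AKR1C1, a near relative, had 2971, 3336 and 2072 in depleted cells, against 471, 497 and 296 in control cells, a difference of 2.69 (SE 0.19, adjusted p = 2.88e-05). Every depleted array lay above every control array in both, but their probe sets match near-identical transcripts, so the signal cannot be assigned firmly to either gene. DDIT4, which restrains mTORC1 under stress, had 761, 703 and 912 in depleted cells, against 168, 96.4 and 123 in control cells, a difference of 2.50 (SE 0.29, adjusted p = 0.00061). Its groups were far apart. These 3 genes kept their calls.

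INHBE, a subunit of activin E, had 94.3, 139 and 60.3 in depleted cells, against 41.5, 1.9 and 9.1 in control cells (difference 1.89, SE 0.31, adjusted p = 0.00752). The control signals were low and spread widely, yet all lay below the depleted ones. KLHL24, a substrate adaptor of a ubiquitin ligase, had 169, 213 and 172 in depleted cells, against 58.1, 38.6 and 23.8 in control cells (difference 1.88, SE 0.18, adjusted p = 0.000175). EPB41L4A-AS1, a long noncoding RNA that hosts a small nucleolar RNA, had 1885, 2154 and 1371 in depleted cells, against 456, 597 and 423 in control cells (difference 1.83, SE 0.17, adjusted p = 0.000175). In both the groups were apart. CLIC5, a chloride intracellular channel protein that binds the actin cytoskeleton, rose by 1.70 (SE 0.22), the calcium-binding protein S100P by 1.68 (SE 0.17) and PRR15L by 1.56 (SE 0.17). All of these genes kept their calls.

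The other genes among the 20 largest rises were SLC7A11, CTH and STC2, described below, CCNG2, CCEPR, MORN3, INSR, MBNL2, KCNAB2, ABCC9 and SCAMP1-AS1, with differences from 1.43 for SCAMP1-AS1 to 1.58 for CCNG2. CCEPR is a long noncoding RNA, MBNL2 a regulator of splicing, KCNAB2 a subunit of potassium channels and ABCC9 the sulfonylurea receptor of a potassium channel. MORN3 had 64.3, 31.5 and 90.9 in depleted cells, against 5.5, 14.7 and 10.8 in control cells, and KCNAB2 had 33.1, 23.9 and 75.8 in depleted cells, against 7.7, 2.5 and 3.8 in control cells. These signals are close to the 19.62 at which probe sets were kept, so the folds are uncertain. CCEPR, MBNL2 and ABCC9 kept their calls. KCNAB2 was called in 0 of the 6 fits (highest adjusted p = 0.13), MORN3 in 2 (0.0687) and SCAMP1-AS1 in 3 (0.0761).

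**Figure D2:**
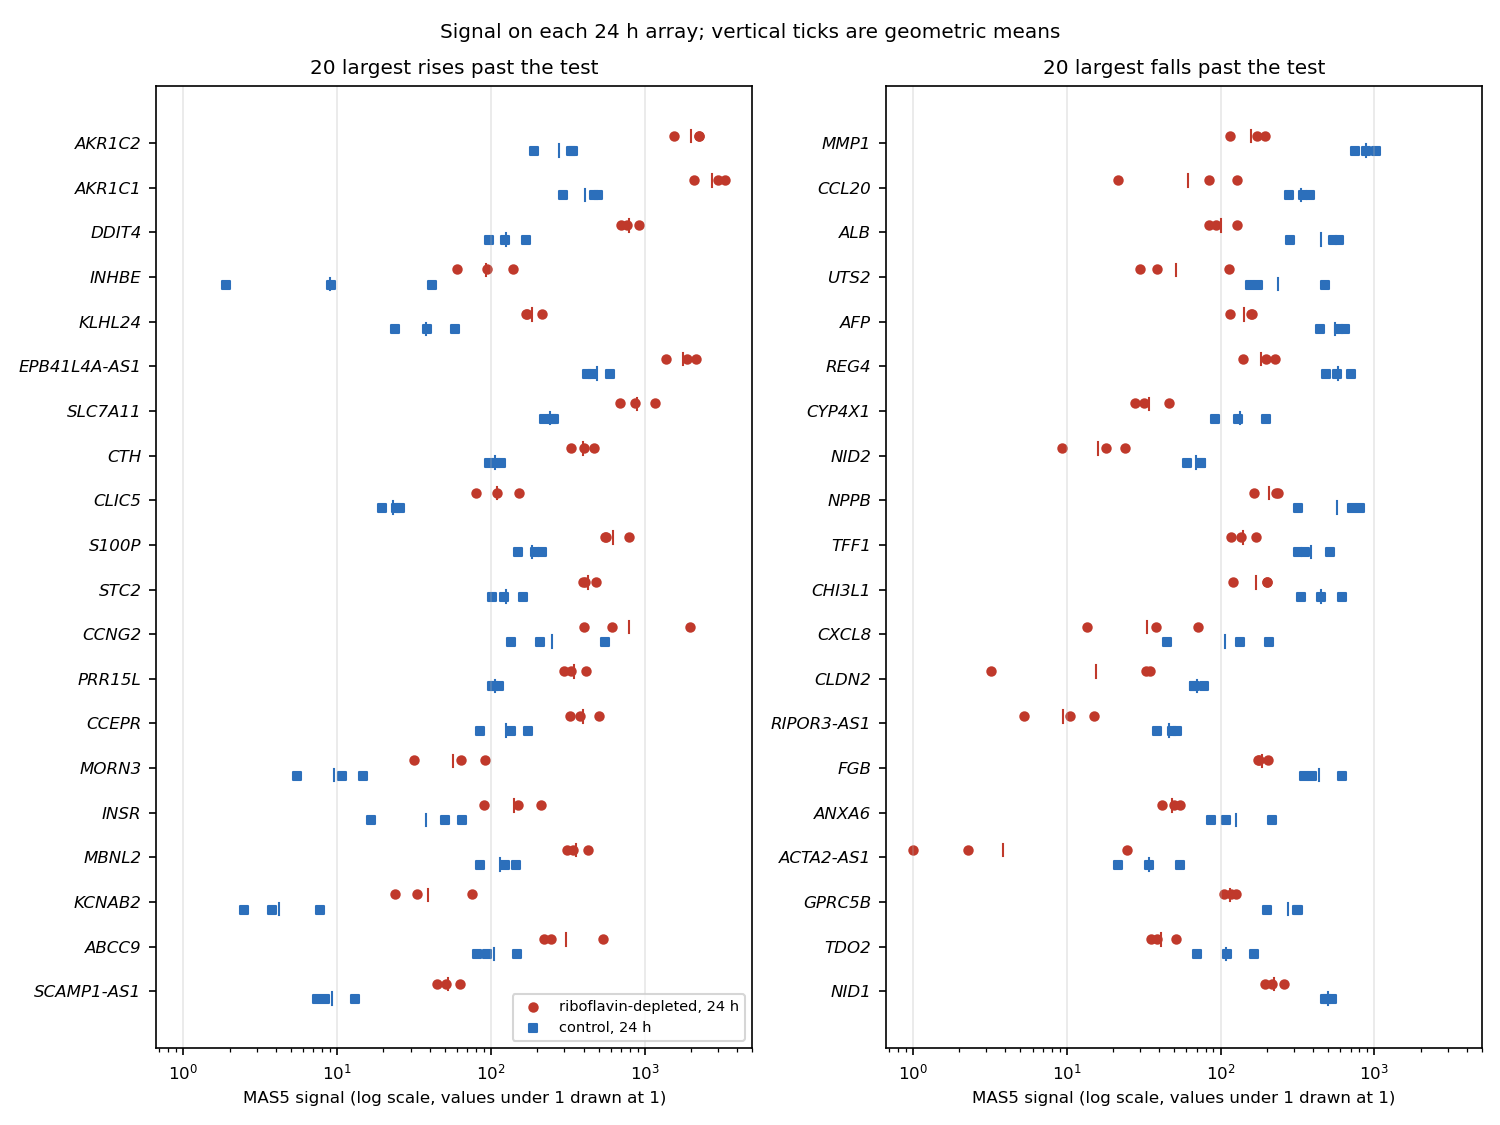
MAS5 signal on each 24 h array (horizontal log axis) for the 20 largest rises (left panel) and the 20 largest falls (right panel) past the test, with depleted arrays as red circles above control arrays as blue squares; vertical ticks are geometric means. AKR1C2 had 1544 to 2256 in depleted cells, against 191 to 343 in control cells, and MMP1 had 115 to 194 in depleted cells, against 753 to 1020 in control cells.

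The largest fall was that of MMP1, a collagenase of the extracellular matrix. Its signals were 194, 173 and 115 in depleted cells, against 887, 1020 and 753 in control cells (difference -2.37, SE 0.21, adjusted p = 0.000148). ALB, serum albumin, had 128, 84.6 and 93.4 in depleted cells, against 585, 285 and 538 in control cells (difference -1.99, SE 0.24, adjusted p = 0.000943). AFP, alpha-fetoprotein, had 160, 157 and 116 in depleted cells, against 641, 593 and 445 in control cells (difference -1.84, SE 0.24, adjusted p = 0.00139). In these 3 genes the depleted arrays all lay below the control arrays and the calls were kept. UTS2, the peptide hormone urotensin 2, fell by 1.88 (SE 0.20), with 114, 38.9 and 29.8 in depleted cells, against 479, 175 and 155 in control cells. CYP4X1, a cytochrome P450, fell by 1.57 (SE 0.20), with 46.3, 32.0 and 27.6 in depleted cells, against 198, 130 and 92.5 in control cells. Both kept their calls, and their groups did not overlap.

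Further falls were those of GPRC5B, an orphan G protein-coupled receptor (difference -1.14, SE 0.18, adjusted p = 0.00531), which kept its call, and of NPPB, brain natriuretic peptide. NPPB had 236, 166 and 228 in depleted cells, against 717, 320 and 801 in control cells (difference -1.39, SE 0.25, adjusted p = 0.0133). Its groups were apart, and it was called in 3 of the 6 fits (highest adjusted p = 0.0663, without the control array of set 3). Of lower signals, the claudin CLDN2 had 34.9, 32.8 and 3.2 in depleted cells, against 67.2, 67.3 and 78.4 in control cells, and TDO2, a tryptophan-degrading enzyme, had 51.1, 38.9 and 35.2 in depleted cells, against 110, 166 and 70.5 in control cells. Each was called in 1 of the 6 fits (highest adjusted p = 0.158 for CLDN2 and 0.115 for TDO2).

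Genes of the ATF4 response and of amino acid supply were among those that rose. Of 20 measured stress transcription factors and early targets 8 rose and 0 fell, with a median difference of 0.66. Of 12 enzymes of serine, asparagine and proline synthesis and transsulfuration 5 rose and 0 fell (median 0.67). Among 21 amino acid transporters 3 rose and 0 fell (median 0.27), and among 17 cytosolic aminoacyl-tRNA synthetases likewise 3 rose and 0 fell (median 0.20). Of all genes 1.98% rose. Leaving out 1 array of 24 h gave 3 to 5 risen genes in the first list, 3 to 4 in the second, 1 to 3 transporters and 0 to 2 synthetases, and without the block the counts were 2, 3, 1 and 0. The 4 counts cover 17 genes, since the ATF4 list shares SLC7A11 with the transporters and CARS1 with the synthetases. Several of these genes carry the core of the amino acid response element (CARE), to which ATF4 binds as a dimer with CEBP proteins, near their start. The core was searched as TGATGNAA on both strands, with N for any base, in the RefSeq promoters of GRCh38.p14, each with 250 bases before and 50 after a start. A match is a description of the letters and not a binding site. Of the 17 genes of these lists that rose, 14 had a promoter entry and 7 of these held the core, as did 11 of 43 members that were measured but not called (25.6%). The core was in 4.46% of the 27305 genes with an entry, in 2.97% of the 10015 measured ones and in 8.7% of the 207 that rose at 24 h. The lists include targets of ATF4, so a higher share in them is not a test. The windows around the 7 matches are shown because all 7 genes rose; each reads 5′ to 3′ on the strand of its gene, and capitals mark the core.
AARS1 (chr16:70289650-70289729, minus strand): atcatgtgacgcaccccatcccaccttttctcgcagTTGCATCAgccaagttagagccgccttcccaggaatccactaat
ASNS (chr7:97872433-97872512, minus strand): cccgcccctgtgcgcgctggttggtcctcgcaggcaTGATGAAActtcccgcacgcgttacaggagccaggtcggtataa
CARS1 (chr11:3057382-3057461, minus strand): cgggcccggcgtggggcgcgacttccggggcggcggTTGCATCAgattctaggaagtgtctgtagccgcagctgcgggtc
CEBPG (chr19:33374035-33374114, plus strand): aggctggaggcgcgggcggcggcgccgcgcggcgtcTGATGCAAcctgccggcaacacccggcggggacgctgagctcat
HERPUD1 (chr16:56931930-56932009, plus strand): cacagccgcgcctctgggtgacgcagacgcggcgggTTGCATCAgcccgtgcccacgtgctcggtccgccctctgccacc
SLC1A4 (chr2:64989356-64989435, plus strand): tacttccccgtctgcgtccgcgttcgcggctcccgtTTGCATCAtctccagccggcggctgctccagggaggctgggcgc
SLC7A1 (chr13:29595639-29595717, minus strand): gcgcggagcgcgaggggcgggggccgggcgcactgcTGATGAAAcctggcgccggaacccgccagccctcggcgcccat

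In AARS1, CARS1, HERPUD1 and SLC1A4 the core lies on the opposite strand, so that the strand of the gene reads TTGCATCA. The core has C at its variable base in 5 of the 7 windows. This form, TGATGCAA, was in 5 of the 14 risen members with an entry (35.7%) and in 7 of the 43 not called (16.3%). Its share was 1.08% of all genes with an entry and 0.809% of the measured ones. The core of ASNS begins 68 bases before the start and that of CEBPG 42 bases before it.

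Among the factors, ATF4 itself had 4698, 2660 and 3760 in depleted cells, against 2737, 1510 and 2418 in control cells (difference 0.74, SE 0.14, adjusted p = 0.0148). It was higher in depleted cells in each set, although the ranges overlapped, and was called in 3 of the 6 fits (highest adjusted p = 0.0671). CEBPB, a partner of ATF4, had 1814, 1826 and 2344 in depleted cells, against 879, 767 and 921 in control cells (difference 1.20, SE 0.22, adjusted p = 0.0147). Its groups were apart, and 2 of the 6 fits called it (highest adjusted p = 0.0687). CEBPG, another partner, rose by 0.55 (SE 0.12, adjusted p = 0.0342) and TRIB3, a pseudokinase that restrains ATF4, by 0.84 (SE 0.18, adjusted p = 0.0268). Both were named after their values were seen, and each was called in 0 of the 6 fits (highest adjusted p = 0.134 and 0.0935).

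STC2, the secreted glycoprotein stanniocalcin 2, had 481, 406 and 398 in depleted cells, against 162, 122 and 101 in control cells (difference 1.64, SE 0.20, adjusted p = 0.00116). HERPUD1, which acts in degradation of proteins from the endoplasmic reticulum, had 2065, 2983 and 1724 in depleted cells, against 1098, 1582 and 842 in control cells (difference 0.94, SE 0.13, adjusted p = 0.00212). In both genes every depleted array lay above every control array and the call was kept.

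Asparagine synthetase, ASNS, had 2611, 2131 and 1936 in depleted cells, against 1107, 705 and 715 in control cells (difference 1.41, SE 0.14, adjusted p = 0.000214). CTH, cystathionine gamma-lyase, which makes cysteine by transsulfuration, had 401, 468 and 332 in depleted cells, against 117, 107 and 96.4 in control cells (difference 1.75, SE 0.15, adjusted p = 0.000148). ALDH1L2, the mitochondrial formyltetrahydrofolate dehydrogenase, had 120, 125 and 107 in depleted cells, against 38.5, 29.9 and 33.3 in control cells (difference 1.42, SE 0.13, adjusted p = 0.000148). These 3 enzymes showed no overlap between groups and kept their calls. PSAT1, a transaminase of serine synthesis, rose by 0.77 (SE 0.13, adjusted p = 0.0102) and SHMT2, which turns serine to glycine in mitochondria, by 0.58 (SE 0.14, adjusted p = 0.0487). PSAT1 was called in 5 of the 6 fits (highest adjusted p = 0.056) and SHMT2 in 0 (highest adjusted p = 0.169). MTHFD2 of the mitochondrial folate pathway differed by 0.52 (adjusted p = 0.0595) and CBS, which precedes CTH in transsulfuration, by 0.89 (adjusted p = 0.142), and neither was called.

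SLC7A11, the cystine importer of system xc-, had 865, 1165 and 688 in depleted cells, against 248, 256 and 222 in control cells (difference 1.81, SE 0.17, adjusted p = 0.000175). The groups were widely apart, 2 of its 3 probe sets were called higher and the call was kept. SLC7A1, the importer of cationic amino acids, had 1655, 1510 and 1315 in depleted cells, against 937, 796 and 896 in control cells (difference 0.75, SE 0.13, adjusted p = 0.0101). SLC1A4, which carries neutral amino acids, had 130, 149 and 165 in depleted cells, against 81.6, 78.6 and 59.6 in control cells (difference 0.88, SE 0.20, adjusted p = 0.0329). Both were higher on every depleted array; SLC7A1 was called in 5 of the 6 fits (highest adjusted p = 0.0538) and SLC1A4 in 1 (0.142). SLC3A2, the partner chain of SLC7A11, differed by 0.71 (adjusted p = 0.053) and SLC38A2, a sodium-coupled importer, by 0.58 (adjusted p = 0.0638). The synthetases AARS1, CARS1 and SARS1 rose by 0.66 (SE 0.13), 0.73 (SE 0.16) and 0.72 (SE 0.17), with adjusted p = 0.0173, 0.0257 and 0.042. Each was called in 1 of the 6 fits, with highest adjusted p = 0.0867, 0.116 and 0.168.

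Genes that restrain mTORC1 and genes of insulin signalling were also among those that rose. mTORC1 promotes growth when amino acids and growth factors are present, and FOXO factors act when insulin signalling is low. Of 24 measured mTORC1 brakes and FOXO targets 8 rose and 0 fell (median 0.56): DDIT4, KLHL24, CCNG2, INSR, ERBB3, IRS2, BCL6 and SESN3, the last named after its values were seen. Fits without 1 array of 24 h gave 3 to 6 risen genes, and that without the block 2. CCNG2, an atypical cyclin linked to arrest, had 609, 1969 and 402 in depleted cells, against 207, 551 and 136 in control cells (difference 1.58, SE 0.29, adjusted p = 0.0131). The signals of set 2 were the highest in both groups, so the ranges overlapped although each depleted array lay above its own control. IRS2, the adaptor of the insulin receptor, had 504, 780 and 450 in depleted cells, against 250, 359 and 223 in control cells (difference 1.00, SE 0.13, adjusted p = 0.00177), with no overlap. INSR, the insulin receptor, had 90.7, 210 and 150 in depleted cells, against 64.4, 16.6 and 50.6 in control cells (difference 1.51, SE 0.34, adjusted p = 0.0322). Of its 5 probe sets 1 was called. ERBB3, a receptor that signals to phosphoinositide 3-kinase, rose by 1.01 (SE 0.20), the transcriptional repressor BCL6 by 0.93 (SE 0.17) and the stress sensor SESN3 by 0.83 (SE 0.19). DDIT4, KLHL24 and IRS2 kept their calls; CCNG2 was called in 3 of the 6 fits (highest adjusted p = 0.0644), INSR in 2 (0.147), BCL6 in 4 (0.0761), ERBB3 in 1 (0.0953) and SESN3 in 0 (0.168).

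Of 26 measured lysosome and autophagy genes 4 rose and 0 fell (median 0.24), with 1 to 2 risen in fits without 1 array of 24 h and 1 without the block. Autophagy encloses cell parts for breakdown in lysosomes. GABARAPL1, an ATG8 protein of the autophagosome membrane, had 397, 318 and 332 in depleted cells, against 157, 144 and 124 in control cells (difference 1.21, SE 0.16, adjusted p = 0.00139), and both of its probe sets were called. RRAGD, a Rag GTPase that brings mTORC1 to lysosomes, had 279, 243 and 268 in depleted cells, against 110, 114 and 134 in control cells (difference 1.04, SE 0.20, adjusted p = 0.0148). Neither gene showed overlap. BNIP3L, a receptor for removal of mitochondria, rose by 0.95 (SE 0.18, adjusted p = 0.0149) and the ATG8 protein MAP1LC3B by 0.55 (SE 0.12, adjusted p = 0.0284). GABARAPL1 kept its call, RRAGD was called in 3 of the 6 fits (highest adjusted p = 0.0699), BNIP3L in 1 (0.0692) and MAP1LC3B in 0 (0.134).

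NRF2, a transcription factor activated by oxidants and electrophiles, has targets in glutathione synthesis and detoxification. Of 31 measured targets 6 rose and 0 fell (median 0.15): AKR1C1, AKR1C2, AKR1C3, SLC7A11, GCLC and UGDH. Fits without 1 array of 24 h gave 4 to 6 risen targets, and that without the block 3. SLC7A11 is counted here, among the amino acid transporters and in the ATF4 list. The signals of AKR1C1 and AKR1C2 cannot be assigned firmly to either gene, so these 2 may not be separate rises. AKR1C3, which reduces prostaglandins and steroids, had 1054, 781 and 574 in depleted cells, against 369, 326 and 198 in control cells (difference 1.39, SE 0.15, adjusted p = 0.000416). Its groups did not overlap and its call was kept. GCLC, the catalytic subunit of the first enzyme of glutathione synthesis, had 1546, 1657 and 1046 in depleted cells, against 746, 1071 and 741 in control cells (difference 0.72, SE 0.14, adjusted p = 0.0188). UGDH, which makes UDP-glucuronate for conjugation, rose by 0.65 (SE 0.14, adjusted p = 0.0268). GCLC was called in 2 of the 6 fits (highest adjusted p = 0.086) and UGDH in 1 (0.12). Haem oxygenase HMOX1 differed by 0.62 (adjusted p = 0.137) and thioredoxin reductase TXNRD1, a flavoenzyme, by 0.50 (adjusted p = 0.0784), and neither was called. The antioxidant response element core TGACNNNGC was searched on both strands of the same promoter entries. It was in 0 of the 5 risen targets that had an entry. Its share was 19.7% of the measured genes with an entry and 16.1% of all genes with one. The entries hold only bases close to a start, so elements farther away were not searched. With 5 genes and these entries, action of NRF2 on the risen targets was not tested.

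Genes of riboflavin handling were not called. Of the 6 measured, 0 rose and 0 fell, and their differences lay between -0.36 and -0.01 (median -0.16). The transporter SLC52A2 had 184, 126 and 257 in depleted cells, against 239, 157 and 202 in control cells (difference -0.10, SE 0.20, adjusted p = 0.839). Riboflavin kinase, RFK, had 171, 303 and 99.6 in depleted cells, against 221, 261 and 146 in control cells (difference -0.21, SE 0.18, adjusted p = 0.592). FAD synthase, FLAD1, had 112, 123 and 184 in depleted cells, against 155, 163 and 210 in control cells (difference -0.32, SE 0.14, adjusted p = 0.245). The groups overlapped in all 3 genes. SLC25A32, the mitochondrial carrier of folate and FAD, differed by -0.36 (SE 0.15), the phosphodiesterase ENPP1 by -0.09 (SE 0.17) and the transporter SLC52A3, at signals of 13.1 to 26.3, by -0.01 (SE 0.36).

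Among 70 measured enzymes that use FAD or FMN, 0 rose and 1 fell (1.43%, near the 0.982% of all genes), with a median of -0.10. The one that fell was NOX1, the NADPH oxidase of colon epithelium, with 161, 113 and 111 in depleted cells, against 282, 252 and 316 in control cells (difference -1.06, SE 0.16, adjusted p = 0.00387). Its groups were apart, 3 of its 4 probe sets were called lower and the call was kept. Monoamine oxidase MAOB (difference -1.38, adjusted p = 0.053) and the actin-oxidising MICAL2 (difference -0.75, adjusted p = 0.0531) were not called.

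The respiratory chain contains flavoenzymes in complexes I and II. Of 33 complex I subunits 0 rose and 1 fell (3.03%, median -0.25). Of 35 subunits of complexes II to V 0 rose and 3 fell (8.57%, median -0.31), against 0.982% of all genes. ATP5MC1, a subunit of the ATP synthase ring, had 416, 524 and 388 in depleted cells, against 876, 943 and 589 in control cells (difference -0.82, SE 0.15, adjusted p = 0.0114). Its groups did not overlap and it was called in 4 of the 6 fits (highest adjusted p = 0.0565). NDUFB6 of complex I fell by 0.64 (SE 0.14), UQCRQ of complex III by 0.56 (SE 0.13) and cytochrome c, CYCS, by 0.51 (SE 0.12), and these were called in 1, 0 and 0 of the 6 fits (highest adjusted p = 0.115, 0.155 and 0.168). In 31 of the 35 subunits of complexes II to V the depleted array lay below the control array in all 3 sets, against 22.5% of all genes, but most of these differences were not called. This was not particular to the respiratory chain. The same held for 22 of 27 proteasome subunits, 48 of 72 mitochondrial ribosomal proteins and 38 of 54 G1/S and DNA replication genes. Among cytosolic ribosomal proteins it held for 7 of 52. Of 72 mitochondrial ribosomal proteins 0 rose and 3 fell (median -0.33). MRPL39 fell by 0.77 (SE 0.13, adjusted p = 0.00905) and kept its call, while MRPS17 was called in 1 of the 6 fits (highest adjusted p = 0.139) and MRPL19 in 0 (0.116).

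In central carbon metabolism, 1 of 26 genes of pyruvate dehydrogenase and the TCA cycle rose and 0 fell (median -0.22). It was PCK2, mitochondrial phosphoenolpyruvate carboxykinase, with 616, 482 and 740 in depleted cells, against 345, 176 and 338 in control cells (difference 1.09, SE 0.23, adjusted p = 0.0232). The groups were apart, and 1 of the 6 fits called it (highest adjusted p = 0.0915). Of 27 glycolysis and hypoxia genes 2 rose and 3 fell (median -0.32). Lactate dehydrogenase LDHA had 2596, 2715 and 2284 in depleted cells, against 3936, 5224 and 3603 in control cells (difference -0.73, SE 0.13, adjusted p = 0.00998), with no overlap and a call in 5 of the 6 fits (highest adjusted p = 0.0559). The glycolytic enzymes PGAM1 and ENO1 fell by 0.58 (SE 0.14) and 0.54 (SE 0.13), and were called in 0 of the 6 fits (highest adjusted p = 0.162 and 0.191). The growth factor VEGFA rose by 0.76 (SE 0.17, adjusted p = 0.0319) and the MAX partner MXI1, an antagonist of MYC, by 0.77 (SE 0.15, adjusted p = 0.0179), with calls in 0 and 1 of the 6 fits (highest adjusted p = 0.14 and 0.089).

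Sterol and triglyceride synthesis share acetyl-CoA as their source. Of 19 cholesterol genes 0 rose and 2 fell (median -0.34). ACAT2, a cytosolic thiolase of sterol synthesis, had 1060, 719 and 703 in depleted cells, against 1766, 1528 and 1479 in control cells (difference -0.95, SE 0.15, adjusted p = 0.00492). FDPS, farnesyl diphosphate synthase, had 514, 361 and 512 in depleted cells, against 1242, 673 and 776 in control cells (difference -0.90, SE 0.14, adjusted p = 0.00549). GPAM, which starts triglyceride synthesis and was the 1 gene of 20 in its list to rise, had 635, 730 and 475 in depleted cells, against 319, 327 and 210 in control cells (difference 1.07, SE 0.17, adjusted p = 0.00549). These 3 genes showed no overlap and kept their calls. Of 26 genes of mitochondrial fatty acid oxidation, whose dehydrogenases use FAD, 1 rose, the acyl-CoA synthetase ACSL5 (difference 0.88, SE 0.17, adjusted p = 0.017, called in 2 of the 6 fits with a highest adjusted p of 0.0923), and 0 fell (median -0.10).

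**Figure D3:**
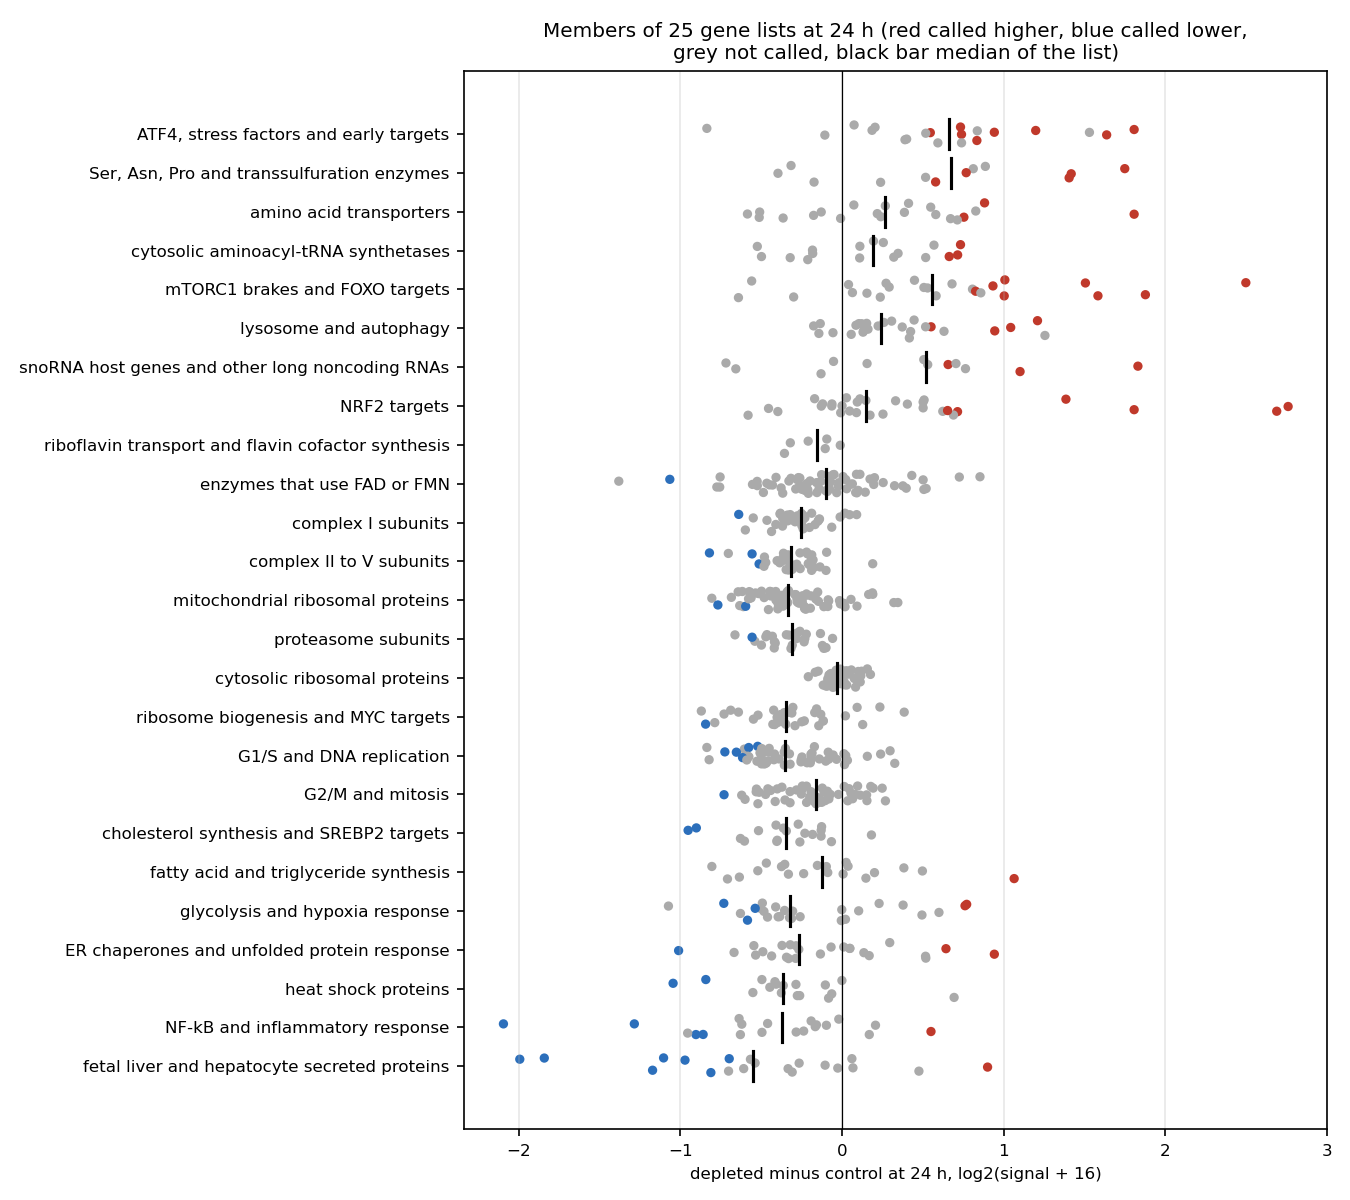
Depleted minus control at 24 h on the log2(signal + 16) scale (horizontal axis) for each measured member of 25 gene lists, with genes called higher in red, called lower in blue and not called in grey; black bars are list medians. The medians ran from 0.67 for enzymes of amino acid synthesis to -0.55 for fetal liver proteins.

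Depletion of riboflavin is the condition under which the series describes impaired proliferation. Of 54 measured G1/S and DNA replication genes 0 rose and 5 fell (9.26%, median -0.35), against 0.982% of all genes. Of 51 G2/M and mitosis genes 0 rose and 1 fell (1.96%, median -0.16). The count of G1/S falls was 0 to 1 in fits without 1 array of 24 h and 0 without the block. Thymidylate synthase, TYMS, had 1452, 1770 and 1487 in depleted cells, against 2308, 2641 and 2275 in control cells (difference -0.61, SE 0.13, adjusted p = 0.028). MCM10, a replication initiation factor, had 296, 308 and 308 in depleted cells, against 477, 574 and 492 in control cells (difference -0.72, SE 0.15, adjusted p = 0.0221). Neither gene showed overlap. UHRF1, which maintains DNA methylation at replication forks, fell by 0.65 (SE 0.14), GINS2, a helicase subunit, by 0.58 (SE 0.13), and MCM4, another helicase subunit, by 0.52 (SE 0.12). The kinetochore gene SPC25 fell by 0.73 (SE 0.15, adjusted p = 0.0257). MCM10, UHRF1 and SPC25 were each called in 1 of the 6 fits (highest adjusted p = 0.0874, 0.115 and 0.102), and TYMS, GINS2 and MCM4 in 0 (0.103, 0.125 and 0.137).

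Among 16 measured CDK inhibitors and G1 cyclins 1 rose and 0 fell. It was CDKN1C, the inhibitor p57, with 116, 126 and 120 in depleted cells, against 53.4, 42.9 and 31.9 in control cells (difference 1.23, SE 0.22, adjusted p = 0.013). The depleted arrays were nearly equal and all above the controls, 3 of 4 probe sets were called higher, and 3 of the 6 fits called it (highest adjusted p = 0.0632). Of 19 p53 targets 1 rose, the RNA-binding protein ZMAT3 (difference 0.83, SE 0.16, adjusted p = 0.0148, called in 3 of the 6 fits with a highest adjusted p of 0.0801), and 0 fell. Of 35 ribosome biogenesis and MYC target genes 0 rose and 1 fell (median -0.35), the ribosome assembly factor MRTO4 (difference -0.84, SE 0.17, adjusted p = 0.0188, called in 2 of the 6 fits with a highest adjusted p of 0.0908). The 52 cytosolic ribosomal proteins held 0 called genes and had a median of -0.03, with differences from -0.21 to 0.18. The 28 translation factors also held 0 called genes (median 0.01).

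Spliced transcripts of genes that host small nucleolar RNAs are often degraded when they are translated. Of 12 such host genes and other long noncoding RNAs 3 rose and 0 fell (median 0.52). Besides EPB41L4A-AS1, SNHG32 had 2485, 2422 and 2212 in depleted cells, against 1264, 923 and 1126 in control cells (difference 1.10, SE 0.16, adjusted p = 0.00284). ZFAS1 had 5745, 8667 and 5688 in depleted cells, against 3934, 5275 and 3466 in control cells (difference 0.66, SE 0.13, adjusted p = 0.0216). Neither overlapped between groups, 3 of the 4 ZFAS1 probe sets were called, SNHG32 kept its call and ZFAS1 was called in 1 of the 6 fits (highest adjusted p = 0.0909).

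Chaperones assist protein folding. Of 25 endoplasmic reticulum chaperone and unfolded protein response genes 2 rose and 1 fell (median -0.27). HERPUD1 and SEL1L, both of the machinery that removes misfolded proteins, rose, the second by 0.64 (SE 0.16, adjusted p = 0.0475). SDF2L1, a chaperone of the endoplasmic reticulum, had 171, 132 and 211 in depleted cells, against 448, 268 and 372 in control cells (difference -1.01, SE 0.19, adjusted p = 0.0154), with no overlap. The chaperones HSPA5 and HSP90B1 differed by -0.43 (adjusted p = 0.0825) and -0.53 (adjusted p = 0.102) and were not called. Of 17 heat shock genes 0 rose and 2 fell (median -0.36). HSPA4L had 77.8, 79.7 and 73.3 in depleted cells, against 152, 216 and 164 in control cells (difference -1.04, SE 0.18, adjusted p = 0.0102), with no overlap and its call kept. The HSP90 co-chaperone FKBP4 fell by 0.84 (SE 0.20, adjusted p = 0.0441). SDF2L1 was called in 3 of the 6 fits (highest adjusted p = 0.0714), SEL1L in 0 (0.173) and FKBP4 in 0 (0.153). Of 27 proteasome subunits 0 rose and 1 fell, PSMC3 (difference -0.56, SE 0.14, called in 0 of the 6 fits with a highest adjusted p of 0.172), and the median was -0.31.

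Chemokines were among the genes that fell. Of 20 measured NF-kB and inflammatory genes 1 rose and 4 fell (20%, against 0.982% of all genes), with a median of -0.37. Falls numbered 0 to 3 in fits without 1 array of 24 h and 0 without the block. CCL20, which attracts lymphocytes and dendritic cells, had 128, 21.5 and 84.1 in depleted cells, against 383, 342 and 278 in control cells (difference -2.09, SE 0.38, adjusted p = 0.0136). All depleted arrays lay below the controls, that of set 2 farthest. CXCL8, a neutrophil chemokine, had 37.9, 71.9 and 13.6 in depleted cells, against 134, 206 and 44.6 in control cells (difference -1.28, SE 0.28, adjusted p = 0.0278). Its ranges overlapped, but each depleted array lay below the control of its set. The chemokine CXCL2 fell by 0.90 (SE 0.19) and the stress gene IER3 by 0.86 (SE 0.16), and the cytokine IL18 rose by 0.55 (SE 0.13). CCL20 and IER3 were each called in 4 of the 6 fits (highest adjusted p = 0.0624 and 0.0598), CXCL8 in 2 (0.107), CXCL2 in 1 (0.126) and IL18 in 0 (0.153). Of 16 interferon response genes 0 were called. Of 24 AP-1 and immediate early genes 1 rose, KLF4, a factor of epithelial differentiation (difference 0.93, SE 0.18, adjusted p = 0.0149, called in 2 of the 6 fits with a highest adjusted p of 0.0759), and 0 fell. EGR1 differed by -0.79 (SE 0.28, adjusted p = 0.153). Among 16 YAP and TEAD targets and 16 TGF-beta and BMP feedback genes 0 were called.

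Proteins of fetal liver, which Caco-2 cells also make, had the lowest median of the 42 lists. Of 20 measured 1 rose and 7 fell (35%, against 0.982% of all genes), with a median of -0.55. Falls numbered 3 to 5 in fits without 1 array of 24 h and 2 without the block. Those that fell were ALB, AFP, FGB and FGG (chains of fibrinogen), SERPINA1 (alpha-1-antitrypsin), APOB (the protein of chylomicrons and LDL) and HABP2 (a plasma protease), FGG being named after its values were seen. HABP2 had 95.5, 80.9 and 79.8 in depleted cells, against 220, 230 and 161 in control cells (difference -1.10, SE 0.15, adjusted p = 0.00171). APOB had 967, 500 and 965 in depleted cells, against 1585, 784 and 1639 in control cells (difference -0.70, SE 0.12, adjusted p = 0.0111). The first showed no overlap and the second did. AHSG, fetuin A, was the member that rose, with 3442, 3748 and 2846 in depleted cells, against 1577, 2486 and 1418 in control cells (difference 0.90, SE 0.16, adjusted p = 0.0104). FGB fell by 1.17 (SE 0.28, adjusted p = 0.0476), FGG by 0.97 (SE 0.21, adjusted p = 0.0254) and SERPINA1 by 0.81 (SE 0.17, adjusted p = 0.0233). ALB, AFP and HABP2 kept their calls, APOB was called in 5 of the 6 fits (highest adjusted p = 0.0571), AHSG in 3 (0.0507), and FGB, FGG and SERPINA1 in 1 each (0.168, 0.0984 and 0.121).

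Of 16 trefoil peptides, REG proteins and other secreted mucosal proteins 0 rose and 3 fell (median -0.28). REG4, a secreted lectin of the gut, had 227, 140 and 197 in depleted cells, against 708, 482 and 568 in control cells (difference -1.57, SE 0.14, adjusted p = 0.000161). TFF1, a trefoil peptide of mucus, had 117, 137 and 170 in depleted cells, against 352, 517 and 317 in control cells (difference -1.37, SE 0.19, adjusted p = 0.0021). CHI3L1, a chitinase-like lectin, had 202, 121 and 200 in depleted cells, against 611, 333 and 453 in control cells (difference -1.33, SE 0.20, adjusted p = 0.00373). In these 3 genes the groups were apart and the calls were kept. Of 20 enterocyte genes 0 rose and 1 fell, the fatty acid-binding protein FABP1, with 649, 245 and 417 in depleted cells, against 1376, 680 and 732 in control cells (difference -1.09, SE 0.25, adjusted p = 0.0391, called in 1 of the 6 fits with a highest adjusted p of 0.139). Sucrase-isomaltase, SI, differed by -0.72 (adjusted p = 0.0563) and was not called. Among 17 Wnt target and stem cell genes 0 were called.

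Matrix genes moved both ways: of 27 measured 2 rose and 4 fell (median -0.02). TIMP2, an inhibitor of matrix proteases, had 712, 947 and 738 in depleted cells, against 281, 384 and 339 in control cells (difference 1.22, SE 0.17, adjusted p = 0.00252). NID1, nidogen 1 of basement membranes, had 258, 215 and 195 in depleted cells, against 534, 479 and 492 in control cells (difference -1.12, SE 0.16, adjusted p = 0.00287). Both showed no overlap and kept their calls, as did MMP1. NID2 fell by 1.39 (SE 0.30, adjusted p = 0.028) at signals of 9.3 to 24.0 in depleted cells. The laminin chain LAMB3 rose by 0.87 (SE 0.18, adjusted p = 0.0221) and LAMB1 fell by 0.63 (SE 0.15, adjusted p = 0.0435). NID2, LAMB3 and LAMB1 were called in 0 of the 6 fits (highest adjusted p = 0.121, 0.0867 and 0.16). Of 9 oncofetal growth genes 1 fell, the chromatin protein HMGA2, with 204, 246 and 219 in depleted cells, against 425, 469 and 417 in control cells (difference -0.92, SE 0.14, adjusted p = 0.00447), and its call was kept.

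Of 19 folate and methionine cycle genes 2 rose, SHMT2 and CTH, and 2 fell, TYMS and SLC19A1. SLC19A1, the reduced folate carrier, had 111, 115 and 86.8 in depleted cells, against 227, 315 and 149 in control cells (difference -0.99, SE 0.17, adjusted p = 0.011), with no overlap and a call in 5 of the 6 fits (highest adjusted p = 0.0624). Of 11 metallothionein and zinc genes 1 rose, the zinc exporter SLC30A1 (difference 0.77, SE 0.16, adjusted p = 0.0269), and of 18 iron and haem genes 1 rose, the iron exporter SLC40A1 (difference 0.69, SE 0.16, adjusted p = 0.0386), while 0 fell in either list. Each was called in 1 of the 6 fits (highest adjusted p = 0.121 and 0.158). The metallothioneins themselves, small metal-binding proteins, were not called: MT1X differed by 1.05 (SE 0.31, adjusted p = 0.0929) and MT2A by -0.26 (SE 0.40, adjusted p = 0.79), and probe sets of MT1 genes match near-identical transcripts.

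The effect at 24 h was next compared with the effects at 48 and 72 h, each measured against the controls of its own time. At 48 h 100 genes were called (0.812%) and at 72 h 1831 (14.9%), against 365 at 24 h. Of the 365 genes 48 were also called in the same direction at 48 h, 118 at 72 h and 30 at all 3 times, and 28 were called in the opposite direction at 72 h. The test of the difference itself, 24 h minus 48 h, called 0 probe sets with limma (lowest adjusted p = 0.233, with 2214 at an unadjusted p under 0.05), so no gene is shown to differ between these times. The difference between 24 h and 72 h was called for 653 genes (5.3%), 427 with a higher effect at 24 h (3.47%) and 226 with a lower one (1.83%), but without set 1 only 2 probe sets were called for it, and without set 3 only 19, against 1251 (4.58%) with all arrays. Of the 365 genes 112 were among them, 108 with a difference in the direction of their change at 24 h. The 365 genes were chosen by the same 24 h arrays that enter this difference, so their share and direction in it are not separate support. Genes described below with a called difference between 24 and 72 h kept that call in all 12 fits with 1 array of 24 or 72 h removed, except where said.

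Of 33 genes of amino acid synthesis and transport 9 had a higher effect at 24 h than at 72 h and 0 a lower one. Of the 20 ATF4 factors and early targets 2 had a higher effect at 24 h (STC2 and HERPUD1) and 2 a lower one, and of the 17 synthetases 0 were called for the difference. HERPUD1 was called for it in just 3 of the 12 fits (highest adjusted p = 0.0687). ALDH1L2 rose by 1.42 at 24 h and fell by 1.12 at 72 h, a difference between times of 2.54 (SE 0.18, adjusted p = 2.17e-05). STC2, of the ATF4 list, rose by 1.64 at 24 h and fell by 0.90 at 72 h (difference between times 2.54, SE 0.29, adjusted p = 0.00071). In control cells STC2 had 162, 122 and 101 at 24 h and 398, 545 and 386 at 72 h, and every control array was higher at 72 h. For ASNS the effect was 1.41 at 24 h, 0.23 at 48 h and 0.20 at 72 h, and the difference between 24 and 72 h was 1.21 (SE 0.20, adjusted p = 0.00498). DDIT4 had effects of 2.50, 1.26 and 0.37 and a difference between 24 and 72 h of 2.13 (SE 0.40, adjusted p = 0.0109). Its depleted cells had 771, 642 and 1058 at 72 h, close to their 24 h signals, against 530, 830 and 540 in control cells at 72 h.

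**Figure D4:**
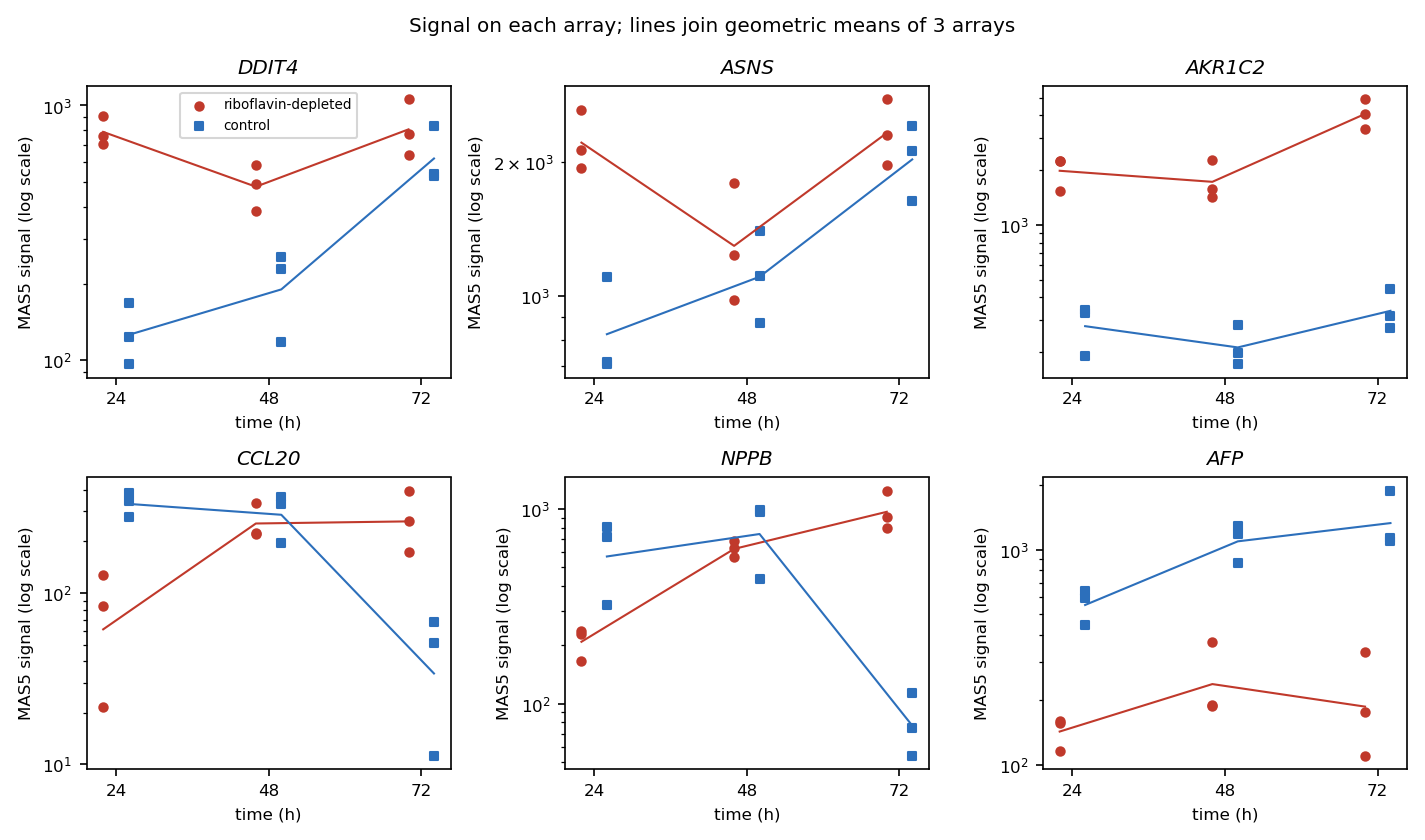
MAS5 signal (vertical log axis) on each array at 24, 48 and 72 h for 6 genes, with depleted arrays as red circles drawn just left of control arrays as blue squares; lines join geometric means of 3 arrays. DDIT4 and ASNS are separated between groups at 24 h and overlap at 72 h, AKR1C2 is separated at all 3 times, and CCL20 and NPPB are lower in depleted cells at 24 h and higher at 72 h.

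Inflammatory and immediate early genes had the opposite order. Of the 20 NF-kB and inflammatory genes 9 had a lower effect at 24 h than at 72 h and 0 a higher one, and of the 24 AP-1 and immediate early genes 12 and 0. NPPB, which is in neither list, also had this order: it fell by 1.39 at 24 h and rose by 3.39 at 72 h (difference between times -4.78, SE 0.36, adjusted p = 3.08e-05). Its depleted cells had 910, 796 and 1236 at 72 h, against 53.9, 75.1 and 113 in control cells at that time. CCL20 fell by 2.09 at 24 h and rose by 2.38 at 72 h (difference between times -4.48, SE 0.54, adjusted p = 0.00106), with 396, 263 and 173 in depleted cells at 72 h, against 67.8, 11.2 and 51.3 in control cells. For both, the control signals were lower at 72 h than at 24 h in each set.

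Other genes were called at 72 h and for the difference between times, but not at 24 h. PTGS2, cyclooxygenase 2, had 333, 360 and 162 in depleted cells at 24 h, against 285, 375 and 226 in control cells (difference -0.10, adjusted p = 0.877), and its effect at 72 h was 2.84. EDN1, endothelin 1, differed by -0.23 (adjusted p = 0.61) at 24 h and by 2.55 at 72 h. CCN1, a matrix-associated YAP target, differed by -0.70 (adjusted p = 0.209) at 24 h and by 2.13 at 72 h. MMP1 and NOX1, which fell at 24 h, had effects of 0.21 and 1.33 at 72 h (differences between times -2.58, SE 0.30, and -2.40, SE 0.22). CXCL8 fell by 1.28 at 24 h and rose by 1.60 at 72 h (difference between times -2.88, SE 0.39, adjusted p = 0.00211).

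**Figure D5:**
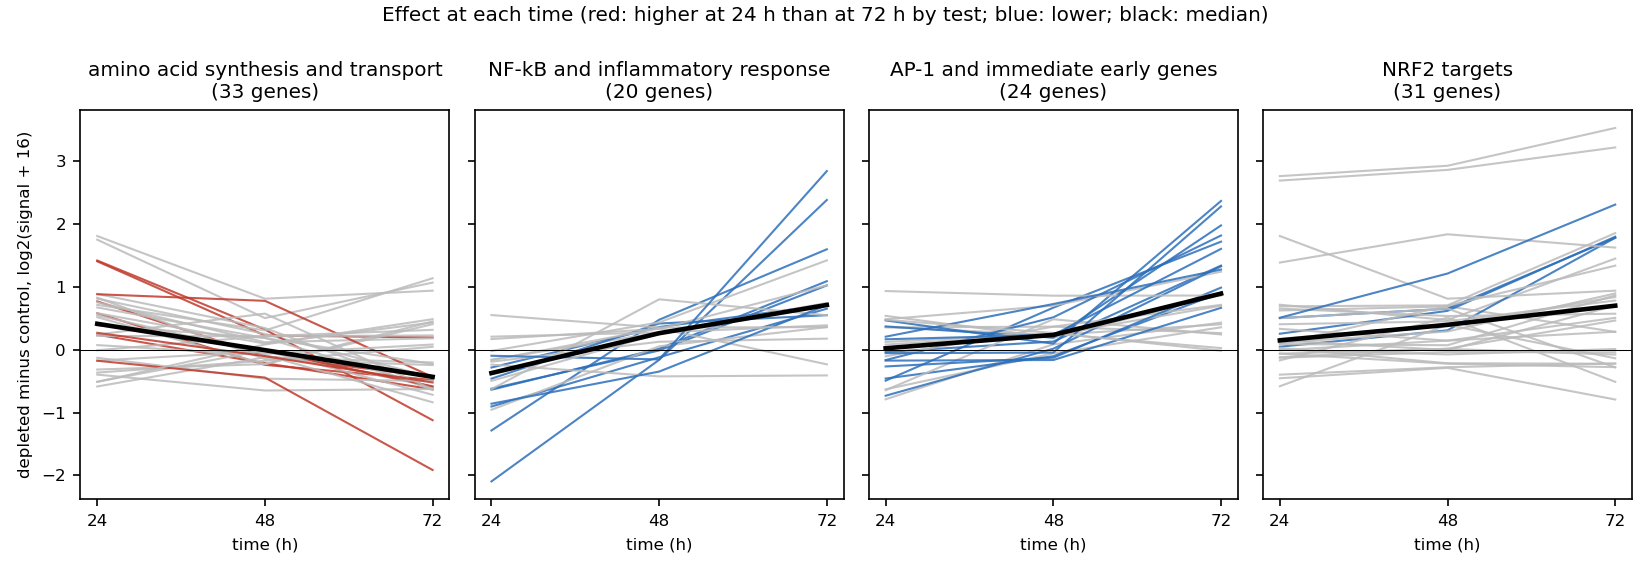
Depleted minus control on the log2(signal + 16) scale (vertical axis) at 24, 48 and 72 h (horizontal axis), 1 line per gene of 4 gene groups, red where the effect was higher at 24 h than at 72 h by test, blue where lower and grey where not called; the black line is the median. The median runs over 0.41, -0.01 and -0.43 for amino acid synthesis and transport, and over -0.37, 0.26 and 0.71 for NF-kB and inflammatory genes.

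Other genes were called at all 3 times. The aldo-keto reductase AKR1C2 differed by 2.76, 2.93 and 3.53 at 24, 48 and 72 h, and AKR1C1 by 2.69, 2.86 and 3.22, each called at all 3 times. The effects on AFP were -1.84, -2.13 and -2.72, those on ALB -1.99, -2.18 and -2.36, and those on CYP4X1 -1.57, -1.45 and -2.10, likewise called at each time. None of these 5 genes was called for a difference between 24 h and either later time. FDPS fell by 0.90, 0.89 and 1.35 and IRS2 rose by 1.00, 0.78 and 0.87, again called at each time. For CHI3L1 the fall was 1.33 at 24 h and 2.66 at 72 h, a difference between times of 1.33 (SE 0.28, adjusted p = 0.0167), which was lost without the control array of set 3 at 24 h (adjusted p = 0.0506).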

How the data were processed

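Total RNA of Caco-2 cells was hybridised to 18 Affymetrix arrays. The deposited intensity values are MAS5 signals made by the authors, per the submitters' processing notes, with no version named there. Their trimmed means (2% at each end) were 100.011 to 100.014. After 62 control probe sets were dropped, the 27307 probe sets with a mean log2(signal + 16) of at least 5.1546 (signal 19.62) were tested. Symbols came from the platform annotation, and each gene was read from its brightest probe set with 1 symbol. All 18 arrays were fitted with limma 3.58.1 (R 4.3.3), with 6 group means and the set as block, and p-values were adjusted by Benjamini-Hochberg; limma was tested on simulated data. The sets follow the array numbering in the labels: deviations from group means correlated at 0.302 to 0.602 for arrays of 1 set, against -0.754 to 0.163 for arrays of different sets. The 3 deviations of each group cancel out, which lowers the values between sets, so the low end of that range is partly built in. Groups of 3 arrays limit the precision. Genes named were the 20 largest rises and falls past the test that lay on the same side in every set, up to 6 members of each of 42 lists with the smallest p, the riboflavin handling genes and the 8 largest differences between times each way. The gene lists and the comparison were chosen with earlier results of these data known. Promoters are RefSeq, GRCh38.p14. Python 3.11.15 with matplotlib 3.10.9 drew the figures.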

Additional observations from a re-analysis of the deposited data

Results flagged for a closer look

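The effect at 24 h differed from that at 72 h by limma's test in 47 of the genes described above, and 30 of these were called in all 12 fits with 1 array of 24 or 72 h removed. Each value here is the effect at 24 h minus the effect at 72 h, on the log2(signal + 16) scale. Groups of 3 arrays are too small for a test of single arrays that stand apart.

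The effect was higher at 24 h, and called in all 12 fits, for ALDH1L2 and STC2 (2.54 each), INHBE (2.49), DDIT4 (2.13), SESN3 (2.00), PCK2 (1.75), ERBB3 (1.65), GPAM (1.45), ZMAT3 (1.44), PRR15L (1.24), CCEPR (1.23), ASNS (1.21), PSAT1 (1.20), APOB (1.07) and SHMT2 (1.06). For APOB both effects were falls, the smaller one at 24 h. The effect was also higher at 24 h, but lost its call in at least 1 of the 12 fits, for KCNAB2 (2.02), MORN3 (1.52), FABP1 (1.41), CHI3L1 (1.33), SLC1A4 (1.32), CDKN1C (1.30), SI (1.17), KLHL24 (1.12), FGG (1.09), SEL1L (1.04), SLC30A1 (0.99), S100P (0.92) and HERPUD1 (0.80). For FABP1, CHI3L1, SI and FGG both effects were negative, less so at 24 h, so these genes were not raised early.

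The effect was lower at 24 h, and called in all 12 fits, for NPPB (-4.78), CCL20 (-4.48), PTGS2 (-2.94), CXCL8 (-2.88), CCN1 (-2.83), MT2A (-2.83), EDN1 (-2.78), MMP1 (-2.58), NOX1 (-2.40), GPRC5B (-2.04), REG4 (-1.74), MICAL2 (-1.67), IER3 (-1.57), CXCL2 (-1.56) and TXNRD1 (-1.28). It was also lower at 24 h, but lost its call in at least 1 of the 12 fits, for MT1X (-1.69), SLC19A1 (-1.13), TFF1 (-1.03) and MRTO4 (-0.96). For TXNRD1 and MT1X both effects were positive, the smaller one at 24 h.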

How the results depend on the processing

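At 24 h 646 probe sets were called, 424 higher and 222 lower. Without the replicate block (the pairing by set) these were 59, 48 and 11, and the 24 h arrays fitted alone with the block gave 0, 0 and 0. A log2(signal + 64) scale gave 1150, 719 and 431, a filter at the 75th percentile 1443, 842 and 601, no filter 205, 142 and 63, and limma's trended robust variances 1340, 772 and 568. A log2(signal + 1) scale, centring on the 75th percentile and quantile normalization stayed within 1.5 times of the count in each direction. Leaving out arrays or whole sets gave 0 to 738, with 0 to 475 higher and 0 to 263 lower; without set 3 all 3 counts were 0, and without set 1 they were 2, 2 and 0.

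For the effect at 24 h minus that at 48 h, the count of 0 became 1 (0 higher, 1 lower) at log2(signal + 64), 6 (5 higher, 1 lower) at the 75th percentile filter and 5 (4 higher, 1 lower) with trended robust variances, and 0 to 1 when arrays were left out (0 to 0 higher, 0 to 1 lower). For that at 24 h minus 72 h, 1251 probe sets (740 higher, 511 lower) became 176 (80 and 96) without the replicate block, 517 (294 and 223) without a filter, and 2 to 1350 (0 to 795 higher, 2 to 555 lower) when arrays or sets were left out. No called gene named above changed direction under any of these settings. The number of arrays and signals near background limit the values.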
